A study of Mus musculus with 3 samples.

Results

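Chemokines are small secreted proteins that steer leukocytes through receptors in the cell membrane, and 4 ligand and receptor axes that are known from skin and lymph node are described here in mouse dorsal skin after ultraviolet B (UVB). The genes were Ccl17 and Ccl22 with their receptor Ccr4, Ccl27a with its receptor Ccr10, Ccl20 with its receptor Ccr6, and Ccl19 and Ccl21a with their receptor Ccr7. They were chosen by symbol, which matched 14 of the 32285 rows of the matrices for 10 symbols, because Ccl27a, Ccl19 and Ccl21a each label more than 1 row. All UMIs (unique molecular identifiers, each standing for 1 captured RNA molecule) of those 3 symbols lay on 1 row each, and the rows of the copies Ccl21b, Ccl21c, Ccl27b and Gm13304 were at 0 in every library and Gm21541 had 1 UMI in WTUV, so reads from near-identical copies cannot be told apart from these genes.

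Single cells were taken from back skin of male C57Bl/6 mice aged 8 weeks in telogen, the resting phase of the hair cycle, after magnetic enrichment of CD45+ leukocytes, and there was 1 library for each of 3 groups. WTctrl was wild type (WT) skin without UVB, WTUV was WT skin after 3 UVB exposures, 1 every other day, and RPUV was skin with the same UVB from an RP mouse. RP mice carry Rosa26-rtTA and Tre-Ptgs2, which overexpress rat Ptgs2 (the cyclooxygenase COX-2) in all tissues under doxycycline; whether the WT mice of these libraries also received doxycycline is not given in the sources used here. The RPUV library came from a single RP male at the same time after UVB as WTUV. The study used these libraries to ask how immune cells of the skin respond to UVB and to more cyclooxygenase.

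CCL17 and CCL22 draw CCR4-bearing T cells into skin and are typical products of dendritic cells. CCL27, made by keratinocytes, holds CCR10-bearing T cells in the epidermis, and CCL20 attracts CCR6-bearing lymphocytes and dendritic cells. CCR7 is switched on when dendritic cells mature and leads them along lymphatic CCL21 to the lymph node, where CCL19 is its other ligand.

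After filtering, 5309, 5225 and 6070 cells remained in WTctrl, WTUV and RPUV, with a median of 4246, 10557 and 3774 UMIs per cell. Levels below are counts of a gene's UMIs per 1000000 UMIs of all genes (CPM), summed over the cells of a class, with an exact Poisson 95% interval. With 1 library per group no test was possible; the intervals cover counting error only and leave out the spread between mice, and they are too narrow where a few cells hold most UMIs. WTUV was sequenced on another flow cell than WTctrl and RPUV, so the run and the group cannot be told apart in comparisons with WTUV, and RPUV differs from WTctrl in both UVB and genotype. Pairs of libraries shared 7 to 9 cell barcodes among the kept cells. Ptgs2, counted without telling the rat transgene from the mouse gene, was at 14.4, 118 and 486 CPM in WTctrl, WTUV and RPUV. The classes are clusters built without the 10 genes and named "-like" from marker panels; 1477, 1162 and 1085 cells stayed unnamed.

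The ligand genes Ccl22 and Ccl17 are neighbours on chromosome 8 of GRCm38.p6, at chr8:94745684-94751388 and chr8:94809380-94812038, with 57991 bases and 3 other genes, Cx3cl1 among them, between them. Ccl20 lies at chr1:83116766-83119167. The 250 bases before the RefSeq starts (GRCm38.p6, + strand) are shown for Ccl22, the ligand with the largest deficit in RPUV dendritic-like cells, and for Ccl20, the only ligand with more CPM in RPUV than in both other libraries over whole libraries. Capitals mark matches on either strand to the NF-kappaB-like letters GGG and CC with 5 bases of any kind between them.
Ccl22 chr8:94745434-94745683: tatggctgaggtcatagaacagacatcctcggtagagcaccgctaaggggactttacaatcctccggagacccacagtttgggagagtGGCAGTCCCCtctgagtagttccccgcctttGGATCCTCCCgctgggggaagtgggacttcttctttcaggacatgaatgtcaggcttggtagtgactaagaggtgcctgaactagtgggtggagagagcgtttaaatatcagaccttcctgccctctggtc
Ccl20 chr1:83116516-83116765: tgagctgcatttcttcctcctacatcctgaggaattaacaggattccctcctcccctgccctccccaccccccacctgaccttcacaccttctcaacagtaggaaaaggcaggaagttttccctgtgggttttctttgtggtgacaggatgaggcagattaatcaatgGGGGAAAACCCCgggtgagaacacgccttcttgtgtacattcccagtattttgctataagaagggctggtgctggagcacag
Ccl22 held 2 matches and Ccl20 held 3, which overlap in 1 run of capitals. Such a match occurred in 45.8% of 32851 RefSeq promoter windows of the same length, so its presence is a description and no sign of a binding site. Neither window held the CRE letters TGACGTCA or the AP-1 letters TGANTCA, which 1.55% and 6.75% of all windows held.

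**Figure D1:**
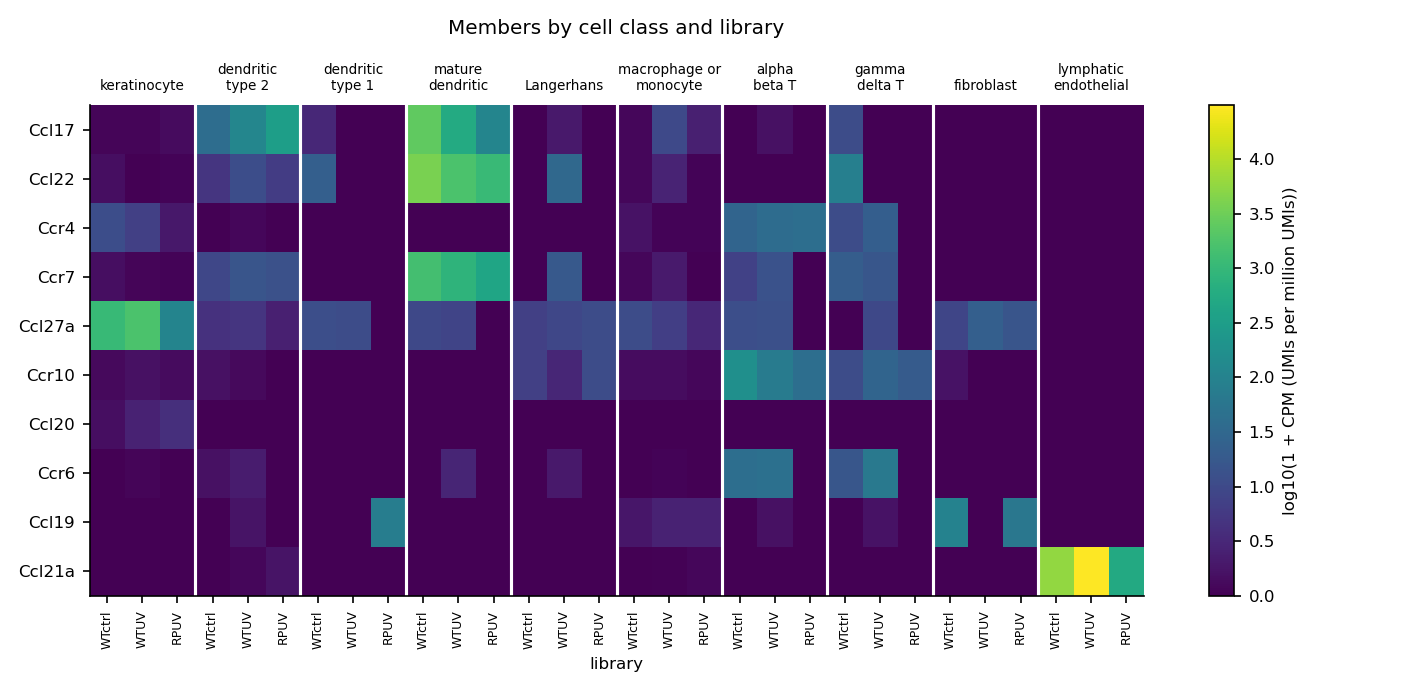
Levels of the 10 genes (rows) in 10 cell classes and 3 libraries (columns), coloured by log10(1 + CPM). Ccl22 and Ccr7 are brightest in mature dendritic-like cells, Ccl27a in keratinocyte-like cells and Ccl21a in lymphatic endothelial-like cells, where WTUV is 1 cell and RPUV 5 cells.

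Over whole libraries, Ccl22 stood at 21.3 CPM in WTctrl, 19.7 in WTUV and 0.790 in RPUV, Ccr7 at 9.30, 14.3 and 0.996, and Ccr4 at 4.19, 3.95 and 0.343. Ccl27a stood at 361, 196 and 33.2, Ccr10 at 6.86, 4.94 and 0.378, and Ccr6 at 2.91, 8.44 and 0.172. RPUV was the lowest library for each of these 6 genes. Ccl17 differed less, at 22.5, 33.4 and 17.9, while Ccl20 was at 0.388, 0.248 and 0.893 and Ccl19 at 6.78, 1.13 and 4.74. Ccr6 was 2-fold or more higher in WTUV than in WTctrl and Ccl19 and Ccl21a were 2-fold or more lower, which is 1 and 2 of the 10 genes beside 5.57% and 15.5% of all 15958 genes with enough UMIs (at least 20 over both libraries). In RPUV against WTUV, Ccl20 and Ccl19 were higher (2 of 10, beside 16.7% of all genes) and Ccl22, Ccr4, Ccr7, Ccl27a, Ccr10 and Ccr6 were lower (6 of 10, beside 9.35%). In RPUV against WTctrl, Ccl20 was higher (1 of 10, beside 7.92%) and those 6 genes and Ccl21a were lower (7 of 10, beside 8.39%). The libraries differ in their mix of cells, and over whole libraries fewer cells of a type and less RNA per cell cannot be told apart. T-like cells numbered 319, 477 and 43 in WTctrl, WTUV and RPUV, dendritic-like cells 611, 641 and 224, and fibroblast-like cells 348, 8 and 400. The CD45+ enrichment can set the number of non-leukocytes in each library.

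**Figure D2:**
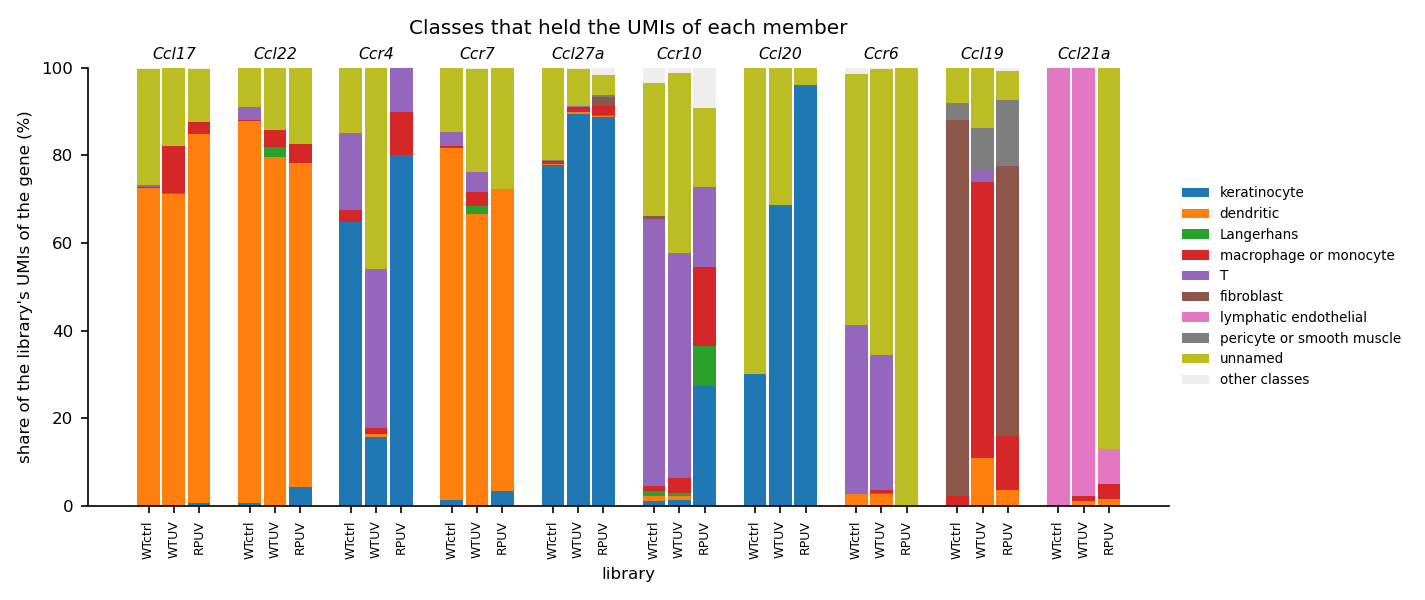
Share of each gene's UMIs (%) by cell class, 1 bar per library. Dendritic-like cells held 71.2% to 84.2% of the Ccl17 UMIs and keratinocyte-like cells 77.9% to 89.4% of the Ccl27a UMIs, whereas Ccr6 UMIs lay mainly in unnamed cells.

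Ccl17 encodes a ligand of CCR4. In conventional dendritic type 2-like cells it stood at 40.2 CPM in WTctrl (95% interval 33.6 to 47.6), 114 in WTUV (107.5 to 120.3) and 326 in RPUV (295.7 to 357.5). The 3 intervals were apart, with WTctrl lowest and RPUV highest, a 2.83-fold difference from WTctrl to WTUV (2.37 to 3.42) and a 2.86-fold difference from WTUV to RPUV (2.56 to 3.19). These UMIs came from few cells, with 132 UMIs in 19 of 538 cells of WTctrl, 1234 in 105 of 592 cells of WTUV and 437 in 48 of 213 cells of RPUV. In WTctrl a single cell held 56 of the 132, and without the cell with the most UMIs in each library the levels were 23.2, 101 and 294. An unnamed cluster led by Cxcl3, Cxcl9 and Ccl17 held 143 Ccl17 UMIs in 14 WTctrl cells and 132 in 48 WTUV cells. Its best marker panel was neutrophil and the next was conventional dendritic type 2. These cells were outside the class, and their part in the 2.83-fold difference was not tested.

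The type 2-like cells of the 3 libraries were spread over different clusters. Most in WTctrl lay in clusters led by Apod, Rbp4 and Cd209e (204 cells) and by Ear2, Slc27a3 and Cd209a (155), most in WTUV in clusters led by Pgf, Ffar2 and Flrt3 (161), by Ccl17, Mmp12 and Ear2 (135) and by Fn1, Lyz1 and Ear2 (125), and most in RPUV in the Ccl17, Mmp12 and Ear2 cluster (115). Within that last cluster Ccl17 stood at 154 CPM in WTctrl, 338 in WTUV and 525 in RPUV, again in the same order. From WTUV to RPUV the ratio was 1.55 (1.37 to 1.76) in the Ccl17, Mmp12 and Ear2 cluster, 1.69 (1.06 to 2.59) in the Fn1, Lyz1 and Ear2 cluster and 4.91 (3.58 to 6.69) in the Pgf, Ffar2 and Flrt3 cluster. The Ear2, Slc27a3 and Cd209a cluster differed from these, with 21 Ccl17 UMIs in 155 WTctrl cells (24.1 CPM), 4 in 61 WTUV cells (5.63) and 0 in 15 RPUV cells.

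Mature dendritic-like cells, which carry Fscn1, Socs2 and Relb, gave another order for Ccl17. It was at 2447 CPM in WTctrl, 565 in WTUV and 109 in RPUV, but the WTctrl value rested on 288 UMIs in 9 of 17 cells, of which 1 cell held 153, and the RPUV value on 1 UMI in 3 cells. Without the richest cell WTctrl stood at 1282 and WTUV at 446. Among all dendritic-like cells the level was 109 in WTctrl (98.8 to 119.9), 130 in WTUV (123.9 to 137.0) and 309 in RPUV (281.1 to 339.8). WTUV over WTctrl was 1.20 (1.07 to 1.34), with a higher level in WTUV in type 2-like cells and a lower one in mature cells. Type 2-like cells held 22.7% of the Ccl17 UMIs in WTctrl, 57.2% in WTUV and 84.0% in RPUV, and mature cells held 49.6% in WTctrl, 302 of 2157 UMIs in WTUV and 0.192% in RPUV. The log2 value of 0.26 for the ratio of WTUV to WTctrl became -0.26 when each cell was classed by its own marker UMIs and 1.63 without the mature cluster.

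After each cell was thinned to 1000 UMIs, which left out 2, 1 and 8 dendritic-like cells, a Ccl17 UMI was present in 3.12% of WTctrl cells (exact binomial interval 1.89 to 4.83), 4.38% of WTUV cells (2.93 to 6.26) and 12.04% of RPUV cells (8.02 to 17.1). Unthinned, the shares were 4.75%, 18.9% and 21.9% at median depths of 6069, 17872 and 5918 UMIs. Macrophage or monocyte-like cells, with thinned shares of 0%, 0.145% and 0.0585% at 3949, 11349.5 and 4980.5 UMIs, give the level in cells that mostly lack the transcript; the 0 of 1134 allows up to 0.265%. The dendritic share exceeded that level in each library. A macrophage-like cluster led by Mmp12, Gpnmb and Mmp19 also held Ccl17, with 203 Ccl17 UMIs at 313 CPM in 34 WTUV cells and 5 UMIs at 11.8 in 68 RPUV cells, and 1 cell held 135 of the WTUV class's 233.

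Summed levels of the 10 macrophage or monocyte markers in type 2-like cells were 1545, 2130 and 2960 CPM in WTctrl, WTUV and RPUV, the same order as Ccl17. The 8 type 2 markers stood at 3861, 3265 and 3255, and 8 of 8 were detected in each library. The part of the macrophage markers in the Ccl17 difference was not tested.

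Ccl22 encodes the other CCR4 ligand. Mature dendritic-like cells held 83.1% of its UMIs in WTctrl, 70.6% in WTUV and 43.5% in RPUV. The level in mature cells was 3883 CPM in WTctrl (3535 to 4256, 17 of 17 cells with a UMI), 1675 in WTUV (1567 to 1788, 28 of 31 cells) and 1094 in RPUV (524.5 to 2012, 2 of 3 cells). WTctrl was above WTUV, 2.32-fold (2.07 to 2.60), while the RPUV interval, from 3 cells, spanned the WTUV value. The 6 Langerhans markers summed to 204, 1366 and 4266 CPM in the mature cells of WTctrl, WTUV and RPUV and the 9 mature markers to 6900, 4634 and 4922, and the part of the Langerhans markers in the Ccl22, Ccl17 and Ccr7 values was not tested.

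In type 2-like cells Ccl22 stood at 3.96 CPM in WTctrl (2.11 to 6.76), 10.5 in WTUV (8.67 to 12.6) and 5.21 in RPUV (2.10 to 10.7). Mature cells were thus above type 2-like cells 982-fold in WTctrl (568 to 1858), 159-fold in WTUV (131 to 195.4) and 210-fold in RPUV (72.1 to 649). For Ccl17 the same ratio was 60.9 in WTctrl, 4.96 in WTUV and 0.336 in RPUV, the last from 1 UMI in mature cells with an interval of 0.00849 to 1.88. Ccl22 UMIs thus lay mainly in mature cells in WTctrl and WTUV, while those of its neighbour Ccl17 lay mainly in type 2-like cells in WTUV and RPUV.

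Over all dendritic-like cells Ccl22 was at 124 CPM in WTctrl (113.4 to 135.9), 85.7 in WTUV (80.5 to 91.2) and 12.01 in RPUV (6.997 to 19.2). RPUV lay 7.14-fold below WTUV (4.44 to 12.3) and 10.3-fold below WTctrl (6.40 to 17.9), opposite to Ccl17, which was 2.37-fold higher in RPUV than in WTUV (2.13 to 2.64). Mature cells made up 2.78% of the dendritic-like cells in WTctrl (1.63 to 4.42), 4.84% in WTUV (3.31 to 6.80) and 1.34% in RPUV (0.277 to 3.86). Without the mature cluster the log2 ratio of RPUV to WTUV for Ccl22 moved from -2.84 to -1.03 (-2.37 to 0.06), no longer beyond counting error, and that of WTUV to WTctrl turned from -0.54 to 0.72 (0.07 to 1.44). With a limit of 4000 genes in every library the log2 ratio of WTUV to WTctrl was -0.034 (-0.20 to 0.14), within counting error.

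A Ccl22 UMI was present after thinning in 2.96% of dendritic-like cells in WTctrl (1.76 to 4.63), 4.06% in WTUV (2.67 to 5.90) and 0.926% in RPUV (0.112 to 3.31), and unthinned in 4.75%, 8.42% and 4.02%. Macrophage or monocyte-like cells had thinned shares of 0.0882%, 0.0963% and 0%, the last allowing up to 0.175%. Of the thinned cells with Ccl22, 7 of 18 in WTctrl, 8 of 26 in WTUV and 1 of 2 in RPUV also held Ccl17. Langerhans-like cells, the dendritic cells of the epidermis, held 0, 31 and 0 Ccl22 UMIs in 68, 69 and 24 cells, and 27 of the 31 came from 1 cell. Unnamed clusters held Ccl22 as well. That led by Iglc3, Igkc and Jchain had 97 UMIs at 266 CPM in 28 WTUV cells. The cluster led by Cxcl3, Cxcl9 and Ccl17 had 35 UMIs at 352 CPM in 14 WTctrl cells.

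**Figure D3:**
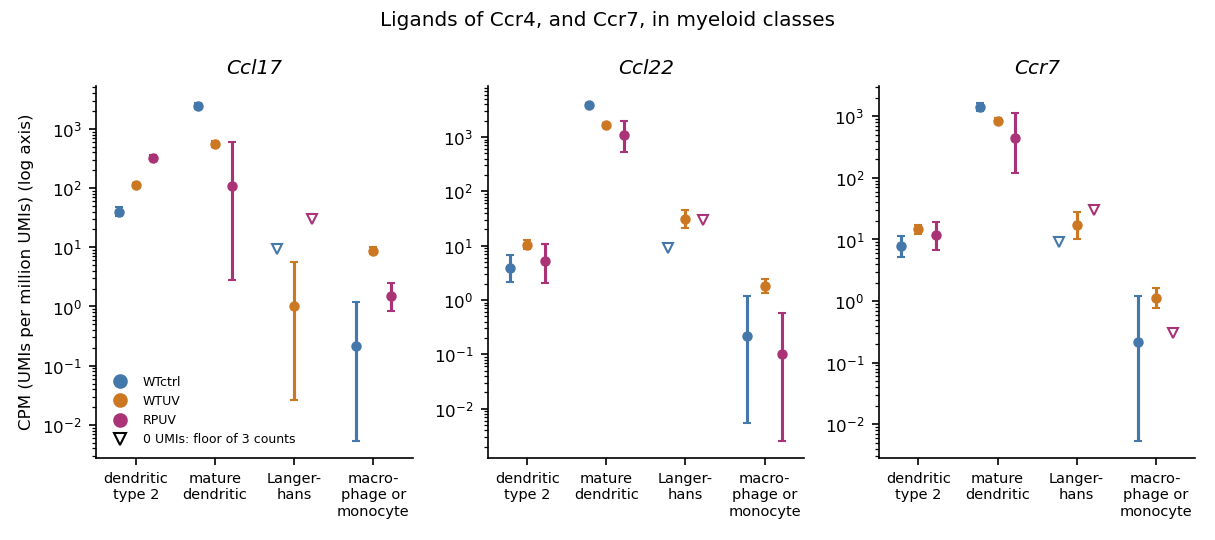
Ccl17, Ccl22 and Ccr7 in 4 classes, in CPM on a log axis, with exact Poisson 95% intervals as bars; open triangles mark 0 UMIs and stand at the floor of 3 counts. Ccl17 in type 2-like cells lies at 40.2, 114 and 326 in WTctrl, WTUV and RPUV, while Ccl22 and Ccr7 in those cells lie between 3.96 and 14.6.

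Ccr7, the receptor that leads maturing dendritic cells to the lymph node, followed Ccl22 in its place. Mature dendritic-like cells were at 1419 CPM in WTctrl (1212 to 1651), 852 in WTUV (775.9 to 934.3) and 438 in RPUV (4 UMIs in 3 cells, 119 to 1120). The order was that of Ccl22, WTctrl highest, and a UMI was found in 14 of 17, 27 of 31 and 3 of 3 cells. In type 2-like cells Ccr7 stood at 7.91 in WTctrl (5.17 to 11.6), 14.6 in WTUV (12.4 to 17.02) and 11.9 in RPUV (6.81 to 19.4), so WTUV exceeded WTctrl 1.84-fold (1.21 to 2.91) and the RPUV interval overlapped both. The thinned shares of these cells with Ccr7, 0.746%, 1.52% and 0.488%, had overlapping intervals.

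Over all dendritic-like cells Ccr7 was at 50.0 CPM in WTctrl, 52.1 in WTUV and 14.13 in RPUV. WTctrl and WTUV did not differ beyond counting error (ratio 1.04, 0.886 to 1.23), and RPUV was 3.69-fold lower than WTUV (2.37 to 6.08). The first of these depended on the filter, which allowed more genes per cell in WTUV. With a limit of 4000 genes in every library the log2 ratio of WTUV to WTctrl was 0.43 (0.18 to 0.68), beyond counting error. Without the mature cluster the log2 ratio of RPUV to WTUV moved from -1.88 to -0.30 (-1.15 to 0.44), no longer beyond counting error. Of the thinned dendritic-like cells with Ccr7, 8 of 12 in WTctrl, 11 of 23 in WTUV and 2 of 3 in RPUV also held Ccl22, beside 3 of 12, 3 of 23 and 1 of 3 for Ccl17. Cells sharing both genes also share their library and depth.

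Among dendritic-like cells 4 of the 10 genes had enough UMIs for WTUV against WTctrl, and 0 passed 2-fold in either direction, beside 6.13% higher and 3.39% lower of all 11104 genes. For RPUV against WTUV, Ccl17 was higher (1 of 4, beside 3.72%) and Ccl22, Ccr7 and Ccl27a were lower (3 of 4, beside 10.3%). The Ccl27a value there rests on 2 UMIs in RPUV, at 1.41 CPM beside 4.33 in WTUV.

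Ccl27a, the keratinocyte ligand of CCR10, had the most UMIs of the 10 genes. Keratinocyte-like cells held 1075 CPM in WTctrl (1051 to 1100), 1697 in WTUV (1666 to 1729) and 104 in RPUV (97.2 to 111). RPUV was 16.3-fold lower than WTUV (15.2 to 17.5) and 10.3-fold lower than WTctrl (9.62 to 11.1), and WTUV was 1.58-fold higher than WTctrl (1.53 to 1.63). These values came from 797 of 1036 cells, 330 of 520 cells and 367 of 1142 cells with a UMI, and the cell with the most held 1.09%, 3.91% and 1.40% of the UMIs.

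Thinned to 1000 UMIs, 50.4% of WTctrl keratinocyte-like cells (47.2 to 53.6), 43.7% of WTUV cells (39.1 to 48.4) and 9.22% of RPUV cells (7.53 to 11.2) held Ccl27a, with 54, 58 and 112 shallower cells left out. Unthinned shares were 76.9%, 63.5% and 32.1% at median depths of 5892, 8860 and 6014.5 UMIs. The share was thus lower in WTUV than in WTctrl while the summed level was higher. Macrophage or monocyte-like cells, which should lack the transcript, had thinned shares of 1.06%, 0.289% and 0.234% and levels of 10.2, 5.94 and 2.14 CPM.

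Keratinocyte-like cells also fell into different clusters by library. The largest were led by Mt4, Clca3a2 and Krt1 in WTctrl (270 cells), by Mt4, Krt10 and Krt1 in WTUV (72 cells) and by Krt16, Krt6b and Cstdc5 in RPUV (144 cells). The class also held clusters found mainly in RPUV. That led by Cfd, Elovl6 and Cers4 had 6, 4 and 80 cells in WTctrl, WTUV and RPUV. That led by Akr1c18, Psph and Ldhb had 21, 4 and 53, with Ccl27a at 440 CPM in WTctrl and 6.68 in RPUV. That led by Elovl4, Scd3 and Rarres1 had 5, 7 and 32. Their part in the pooled ratios was not tested. Within clusters of at least 10 cells in both libraries, Ccl27a was lower in RPUV than in WTUV in 13 of 13, each with an interval below 1, by a median of 7.41-fold and between 2.38-fold and 36.5-fold. The deficit was largest in the cluster led by Cst6, Sprr1a and Krt17, at 3731 CPM in WTUV and 102.1 in RPUV. In the cluster led by Col17a1, Krt15 and Fcgbp the levels were 1408 in WTctrl, 1958 in WTUV and 367 in RPUV, and the deficit was smallest in the cluster led by Krt77, Gm94 and Krt10, at 290, 400 and 168.

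Against WTctrl, RPUV was lower in 13 of 14 clusters, 12 of them with an interval below 1. The exception was the cluster led by Gpha2, Ptn and Lhx2, with 170 CPM in RPUV and 75.4 in WTctrl (ratio 2.26, 1.12 to 4.84). Between WTUV and WTctrl, 9 of 11 clusters were higher in WTUV, 7 with an interval above 1, and 2 were lower with an interval below 1. These 2 were led by Krt5, Krt14 and Aknad1 (1178 in WTUV, 1593 in WTctrl) and by Cenpf, Ube2c and Prc1 (483 and 743). The 11 keratinocyte markers summed to 32570, 35750 and 34950 CPM in WTctrl, WTUV and RPUV, with 11 of 11 detected in each, a narrower range than that of Ccl27a. In the RefSeq annotation Ccl27a (chr4:41769467-41774225) overlaps Il11ra1. Among the other genes, Ccr10 overlaps Cntnap1, Ccr6 overlaps Gm33799, and Ccl19 and Ccl21a overlap 4930578G10Rik. How reads in these overlaps were assigned was not examined here.

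**Figure D4:**
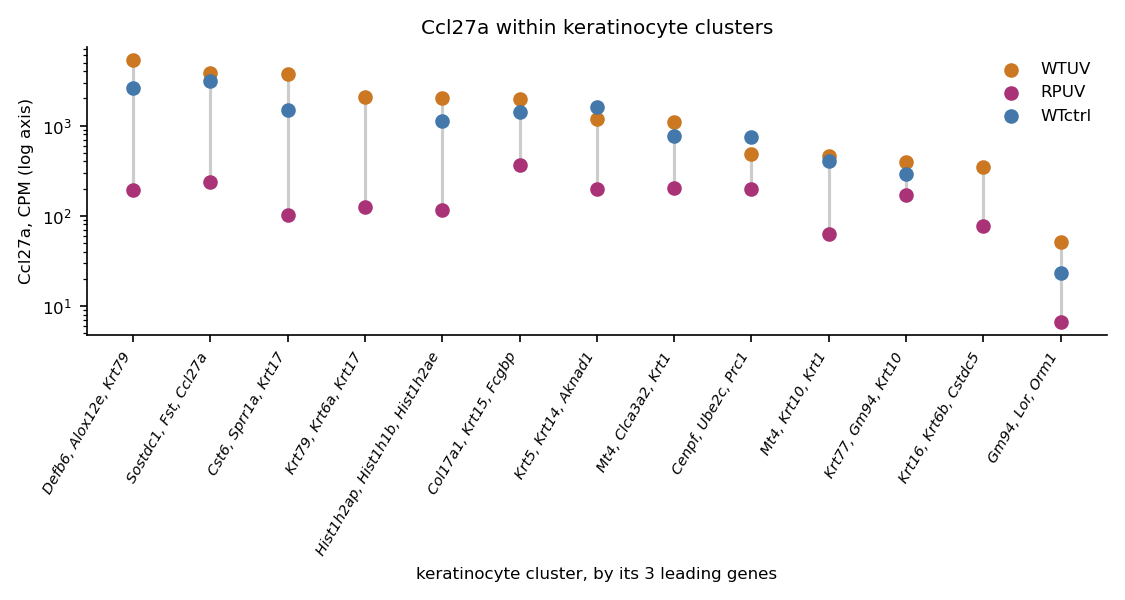
Ccl27a in keratinocyte-like clusters with at least 10 cells in both WTUV and RPUV, in CPM on a log axis; each column is a cluster named by its 3 leading genes, and WTctrl is drawn where it also had 10 cells. RPUV lies below WTUV in 13 of 13 clusters.

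Ccl20, the CCR6 ligand of inflamed epidermis, was sparse. Keratinocyte-like cells held 3 UMIs in WTctrl, 11 in WTUV and 25 in RPUV, at 0.445, 1.65 and 3.03 CPM, from 1, 5 and 9 cells. RPUV was 6.82-fold above WTctrl (2.08 to 35.3), and its ratio of 1.84 to WTUV had an interval of 0.871 to 4.13. A single cell held 10 of the 25 RPUV UMIs, and without the richest cell of each library RPUV stood at 1.82 and WTUV at 0.905.

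Among keratinocyte-like cells 2 of the 10 genes could be compared between WTUV and WTctrl, and 0 passed 2-fold, beside 4.48% higher and 3.62% lower of 11729 genes. For RPUV against WTUV 3 genes could be compared, 0 were higher (beside 7.04%) and Ccr4 and Ccl27a were lower (2 of 3, beside 6.29%).

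Ccl19, made by stromal cells and a ligand of CCR7, stood in fibroblast-like cells at 96.9 CPM in WTctrl (82.0 to 113.7) and 60.6 in RPUV (48.4 to 74.9), while WTUV had 0 UMIs in its 8 fibroblast-like cells. RPUV was 1.60-fold lower than WTctrl (1.22 to 2.11), but within clusters the order differed. In the cluster led by Col1a2, Col1a1 and Col3a1 the levels were 179 in WTctrl and 79.9 in RPUV, the latter from 4 UMIs (2.24-fold lower, 0.855 to 8.34), whereas in those led by Gpx3, Hp and Car3 and by Tnc, Cyp26b1 and Thbs2 RPUV exceeded WTctrl, at 97.7 against 40.3 and 102.3 against 12.1, the last from 1 UMI. In WTctrl 134 of the 150 UMIs lay in the first of these clusters, where WTUV had 0 cells, so no comparison with WTUV was drawn. Pericyte or smooth muscle-like cells held 42.8, 81.4 and 37.7 CPM of Ccl19 from 7, 7 and 21 UMIs.

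Ccl21a, the CCR7 ligand of lymphatic endothelium, lay in few cells. In WTctrl 189 of 189 UMIs were in lymphatic endothelial-like cells, at 5764 CPM from 9 of 12 cells, and 1 cell held 94. In WTUV 169 of 173 UMIs came from the 1 lymphatic endothelial-like cell, and in RPUV 5 UMIs came from 5 such cells and 53 from 1 cell of an unnamed cluster led by Ccl21a, S100a8 and S100a9. The whole-library levels of Ccl21a, 7.33, 2.68 and 2.13 CPM in WTctrl, WTUV and RPUV, thus rest on few cells, and no comparison within the class was drawn.

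Ccr4, the receptor for CCL17 and CCL22, was at 23.1 CPM in T-like cells of WTctrl (13.9 to 36.0), 29.8 in WTUV (24.0 to 36.5) and 13.0 in RPUV (0.328 to 72.3). The intervals overlapped; RPUV held 1 UMI in 43 cells, and WTUV over WTctrl was 1.29 (0.782 to 2.24). Thinned shares of T-like cells with Ccr4 were 3.27% (10 of 306), 3.36% (16 of 476) and 2.86% (1 of 35), beside 5.02%, 13.6% and 2.33% unthinned at median depths of 2325, 5251 and 1671 UMIs. In macrophage or monocyte-like cells the thinned share was 0.0882% in WTctrl and 0% in both others. The unthinned intervals of WTctrl and WTUV were apart and the thinned intervals overlapped.

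Keratinocyte-like cells held 64.8% of the Ccr4 UMIs in WTctrl, 15.7% in WTUV and 80.0% (8 of 10 UMIs) in RPUV. Their level was 10.4 CPM in WTctrl (8.09 to 13.1), 6.01 in WTUV (4.29 to 8.19) and 0.971 in RPUV (0.419 to 1.91). In the cluster led by Mt4, Clca3a2 and Krt1 it reached 22.4 in WTctrl, 50 UMIs spread over 44 of 270 cells, close to the level of T-like cells, beside 15.95 in WTUV (15 UMIs in 44 cells) and 8.93 in RPUV (2 UMIs in 30 cells). Within clusters of at least 10 cells in both libraries, RPUV was below WTUV in 6 of 6 and below WTctrl in 6 of 6. WTUV was above WTctrl in 4 of 7 clusters and below it in 3. The interval held 1 in all 7 clusters for WTUV against WTctrl and in all 6 for each RPUV comparison. Each cluster held few Ccr4 UMIs, at most 15 in WTUV and 4 in RPUV, so the intervals cannot settle the differences within clusters. The 12 alpha beta T markers summed to 116 CPM in WTctrl keratinocyte-like cells and 8865 in T-like cells, with 11 of 12 detected in the former and Foxp3 at 0. Their part in the Ccr4 UMIs of keratinocyte-like cells was not tested.

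**Figure D5:**
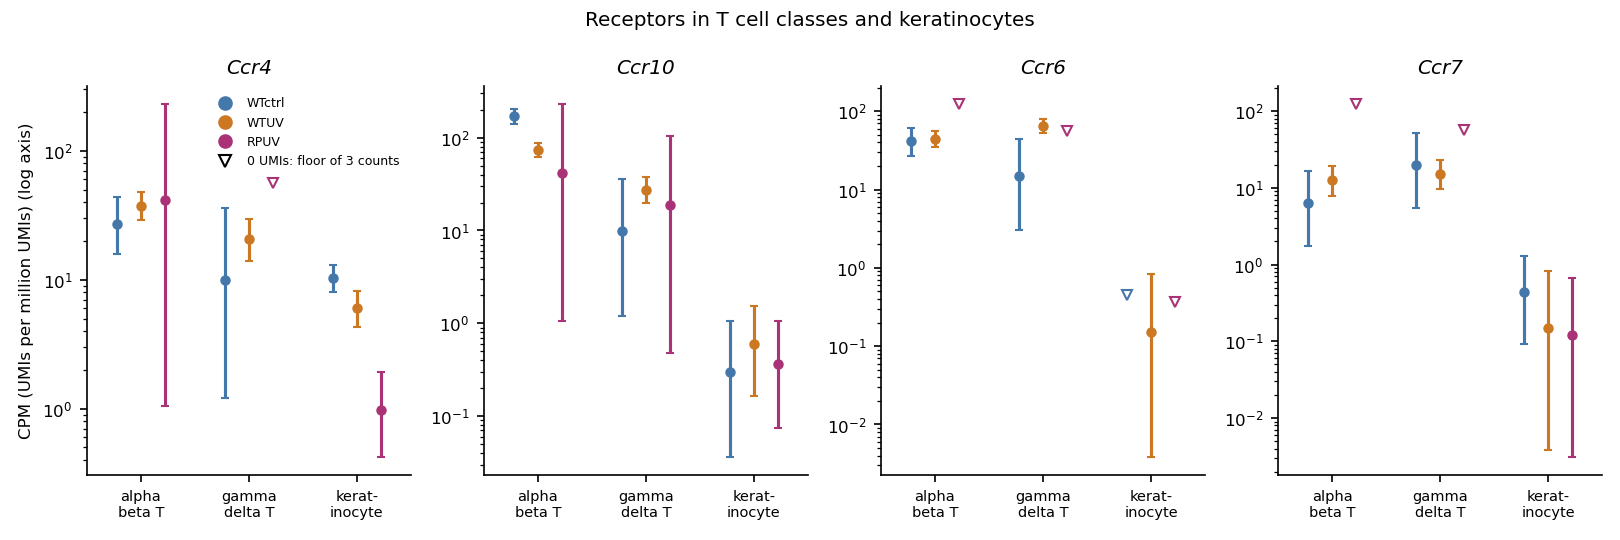
Ccr4, Ccr10, Ccr6 and Ccr7 in T-like and keratinocyte-like cells, in CPM on a log axis, with exact Poisson 95% intervals as bars; open triangles mark 0 UMIs and stand at the floor of 3 counts. Ccr10 in alpha beta T-like cells is lower in WTUV (74.1) than in WTctrl (170), and RPUV values rest on 0 or 1 UMI in both T-like classes.

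Ccr10, the receptor for CCL27, was at 131 CPM in T-like cells of WTctrl (107.6 to 158.3), 52.5 in WTUV (44.8 to 61.2) and 25.9 in RPUV (2 UMIs, 3.14 to 93.7). WTUV was 2.50-fold below WTctrl (1.94 to 3.20), the opposite order to the summed level of its ligand Ccl27a in keratinocyte-like cells. The whole-library level of Ccl27a was instead lower in WTUV than in WTctrl. The thinned share of keratinocyte-like cells with Ccl27a was also lower in WTUV, with overlapping intervals. Most of the UMIs were in alpha beta T-like cells, at 170 in WTctrl, 74.1 in WTUV and 41.7 (1 UMI) in RPUV, whereas gamma delta T-like cells held 9.99, 27.6 and 18.8, from 2, 40 and 1 UMIs. Gamma delta T-like cells made up 24.5% of the T-like cells in WTctrl, 51.2% in WTUV and 69.8% in RPUV. The Ccr10 difference was also seen within the cluster led by Cd8b1, Ms4a4b and Trac, at 201 in WTctrl and 94.8 in WTUV (ratio 0.470, 0.348 to 0.637), while it was not detectable in the Foxp3-bearing cluster led by Ctla4, Tnfrsf4 and Il2ra, at 117 from 7 UMIs and 132 from 23 UMIs (ratio 1.13, 0.471 to 3.13).

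Thinned shares of T-like cells with Ccr10 were 12.4% in WTctrl (8.94 to 16.6), 2.94% in WTUV (1.62 to 4.89) and 2.86% in RPUV (0.0723 to 14.9). Unthinned they were 23.2%, 18.7% and 4.65%, and the thinned share in macrophage or monocyte-like cells was 0.0882%, 0% and 0.0585%. WTctrl stood above WTUV in both the level and the thinned share.

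Ccr6, the receptor for CCL20, stood at 35.2 CPM in T-like cells of WTctrl (23.6 to 50.6) and 53.8 in WTUV (46.0 to 62.6). RPUV had 0 UMIs in 43 cells, where the floor of 3 counts was 38.9, so WTUV was at least 1.38-fold higher. In gamma delta T-like cells WTUV was at 64.9 and WTctrl at 15.0 from 3 UMIs (ratio 4.33, 1.44 to 21.4), while alpha beta T-like cells differed by less than counting error (44.2 and 41.7). A gamma delta cluster led by Cd163l1, Cxcr6 and Blk held 89 of the 94 WTUV UMIs, in 43 of 67 cells at 180 CPM, and 2 of the 3 WTctrl UMIs. This cluster made up 2.19% of the T-like cells in WTctrl, 14.05% in WTUV and 20.9% (9 cells) in RPUV.

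The larger part of the Ccr6 UMIs, 57.3% in WTctrl, 65.3% in WTUV and 5 of 5 UMIs in RPUV, lay in unnamed cells. An unnamed lymphoid cluster led by Il13, Icos and Hlf, with alpha beta T and innate lymphoid type 2 markers at like scores, held 29 Ccr6 UMIs at 393 CPM in 13 of 23 WTctrl cells (263.5 to 565.0) and 259 UMIs at 224 CPM in 93 of 156 WTUV cells (197.6 to 253.0). The level in this cluster was thus lower in WTUV, with intervals apart. Over the whole WTUV library Ccr6 was 2.90-fold higher (2.28 to 3.75), and this cluster had 156 cells beside 23. The part of the cell number in that difference was not tested. Ccr7 in T-like cells was at 9.71 in WTctrl, 13.8 in WTUV and 0 in RPUV, with overlapping intervals.

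Among T-like cells 5 of the 10 genes could be compared between WTUV and WTctrl, where 0 were 2-fold higher (beside 6.25% of 9545 genes) and Ccr10 was lower (1 of 5, beside 1.51%). For RPUV against WTUV 0 of 5 were higher (beside 10.2%) and Ccr4, Ccr7, Ccl27a, Ccr10 and Ccr6 were lower (5 of 5, beside 27.8%). Each of these 5 rests on 0 to 2 UMIs in 43 RPUV cells, and the ratio interval was wholly below 1 for Ccr6 alone. The 11 keratinocyte markers in T-like cells summed to 321, 404 and 1064 CPM in WTctrl, WTUV and RPUV, and their part in the receptor values was not tested.

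Of 13 other chemokine or egress receptors, 12 could be compared over whole libraries. In RPUV against WTUV 0 were 2-fold higher (beside 16.7% of all genes) and 9 were lower (beside 9.35%), with a median log2 ratio of -1.59 beside 0.05 over all genes, and in WTUV against WTctrl 4 were higher (beside 5.57%) and 0 lower (beside 15.5%). Ccr2, the receptor for monocyte chemokines, had the highest level of the list, at 241, 450 and 72.8 CPM in WTctrl, WTUV and RPUV over whole libraries and at 435, 614 and 288 in dendritic-like cells. In T-like cells 8 of the 13 could be compared between RPUV and WTUV, and 4 were lower, beside 27.8% of all genes, in 43 RPUV cells. Cxcr6 had the highest T-like level, at 480, 412 and 285.

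Of 14 other chemokine ligands of skin and lymphoid tissue, 4 were higher (beside 16.7% of all genes) and 4 lower (beside 9.35%) in RPUV than in WTUV over whole libraries, with a median log2 ratio of -0.04. Ccl8 was the highest, at 5446, 6604 and 4073 CPM in WTctrl, WTUV and RPUV. Keratinocyte-like cells held Cxcl14, an epidermal chemokine, at 309, 143 and 141, with WTUV and RPUV close to each other and below WTctrl. T-like cells held Xcl1 at 732, 622 and 623 and Ccl5 at 1057, 384 and 208.

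Of 5 atypical or scavenging receptors, 3 were higher (beside 16.7% of all genes) and 0 lower (beside 9.35%) in RPUV than in WTUV over whole libraries, and 1 was higher (beside 5.57%) and 4 lower (beside 15.5%) in WTUV than in WTctrl. Blood endothelial-like cells numbered 88, 21 and 329 in WTctrl, WTUV and RPUV, and the part of the cell mix in these counts was not tested. Ccrl2 stood at 17.6, 46.1 and 67.5 CPM in WTctrl, WTUV and RPUV. Ackr4, which takes up CCL19 and CCL21, was at 83.5, 48.4 and 24.3 in keratinocyte-like cells, lowest in RPUV. Within keratinocyte-like cells 3 of the 5 receptors could be compared between RPUV and WTUV, with 0 higher (beside 7.04%) and 2 lower (beside 6.29%). Of 10 homing adhesion genes, 3 were higher (beside 16.7% of all genes) and 4 lower (beside 9.35%) in RPUV than in WTUV over whole libraries. Selplg had the highest level, at 114, 161 and 68.7, and Itgae, a chain of the integrin that binds epithelial cadherin, stood at 459, 378 and 234 in T-like cells. None of the 4 paralogs or near-identical copies of the member ligands had enough UMIs to compare.

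Over 35 combinations of class and library with at least 20 cells, the genes with the pattern most like that of Ccl22 were Il4i1 (Pearson r 0.95 of log2 levels), Ccr7 (0.91) and H2-Eb2 (0.90), and those most like Ccr7 were Il4i1 (0.95), H2-Eb2 (0.91) and Ccl22 (0.91). Mature dendritic-like cells entered as 1 point, from the 31 cells of WTUV, because WTctrl had 17 and RPUV 3. The patterns therefore hold no mature cells of WTctrl or RPUV. Ccl17 was less closely matched, by Marco (0.88), Tnip3 (0.79) and Etv3 (0.77). Ccl27a was most like Skint4 (0.95), Skint1 (0.95) and Krt23 (0.94), Ccr10 like Cd8b1 (0.92), Cd6 (0.92) and Ifng (0.91), and Ccr6 like A430093F15Rik (0.94), Krt83 (0.89) and Cd8b1 (0.89). Ccr4 was most like Krt83 (0.90), Il9r (0.88) and Ccr6 (0.85), Ccl19 like Pth1r (0.99), C1qtnf2 (0.99) and Tbx15 (0.98), and Ccl21a like Btbd17 (0.85), Slc9a4 (0.79) and F7 (0.77). Lymphatic endothelial-like cells, with 12, 1 and 5 cells in WTctrl, WTUV and RPUV, were below the limit of 20 cells. The Ccl21a matches therefore leave out the class that held most of its UMIs in WTctrl and WTUV. They rest on few UMIs and describe no pattern of Ccl21a. Points of 1 library share its depth, and Ccl20 had too few UMIs. Il4i1 is among the markers that named mature dendritic-like cells, and Cd8b1 is among those that named alpha beta T-like cells.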

How the data were processed

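CD45+ enriched dorsal skin cells were profiled with 10x 3′ chemistry, 1 library per group. The deposited UMI counts per gene and cell were made by the authors with Cell Ranger (6.1.1 in the matrix headers) on mm10; free RNA was not removed, and leaving out the 5% of cells with the highest doublet scores was an alternative. Cells with 200 to 4000 genes (6000 in WTUV) and under 10% mitochondrial UMIs were kept, as in the study's methods. Clustering used Seurat 5.3.0 with SCTransform integration (R 4.3.3) and a second round with scanpy 1.11.5, without the chemokine and receptor genes, giving 128 clusters, of which 92 were named from 21 marker panels. Raw counts were summed per class and library and given as CPM, with exact 95% intervals (scipy 1.17.1). Folds required 20 UMIs over both libraries, with called meaning 2-fold or more. Named genes were the 10 genes, genes with the highest level of their list over a whole library or in a class, and the 3 most correlated genes, on log2(CPM + 10) with at least 200 UMIs. The limits for naming clusters were set after the clusters had been seen, while the marker panels were fixed before. Clusters and any other gene named were chosen after their values were seen. Some members of the lists are not reported here by name. The genes and lists were chosen with earlier results of these data known. The interval code was tested on simulated data. Precision is limited by depth, from 25795684 to 64556621 UMIs per library, and by the few cells of each class.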

Additional observations from a re-analysis of the deposited data

How the results depend on the processing

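With 1 library per group no replicate could be left out, and no paired analysis was possible because each group is 1 library. Over 11 alternative settings 20 results gave 104 values, of which 78 stayed within their interval, 24 moved out of it and 2 reversed. Values are log2 ratios, and the settings without the mature cluster, without the richest cell of each library and with every cluster named by its best panel were chosen after seeing the data. Classing each cell by its own marker UMIs gave Ccl17 in dendritic-like cells -0.26 for WTUV over WTctrl (0.26 as reported) and 0.73 for RPUV over WTUV (1.25), Ccl22 -1.998 for RPUV over WTUV (-2.84) and Ccl27a in keratinocyte-like cells 0.57 for WTUV over WTctrl (0.66). Averaging over cells gave, for WTUV over WTctrl, 0.85 for Ccl17, -0.36 for Ccl22 (-0.54), 0.42 for Ccr7 (0.06) and 0.19 for Ccl27a, and, for RPUV over WTUV, 0.80 for Ccl17, -2.03 for Ccl22 and -3.43 for Ccl27a (-4.03). Without the mature cluster WTUV over WTctrl was 1.63 for Ccl17, 0.72 for Ccl22 and 1.02 for Ccr7, and RPUV over WTUV 1.502, -1.03 and -0.30 (-1.88 as reported for Ccr7). Without the richest cell WTUV over WTctrl was 0.77 for Ccl17 and -0.33 for Ccl22. A limit of 4000 genes in every library gave, for WTUV over WTctrl, -0.034 for Ccl22 (-0.20 to 0.14) and 0.43 for Ccr7 (0.18 to 0.68). Under that limit the Ccl22 difference was within counting error and the Ccr7 difference was beyond it, the reverse of the reported values. Median-of-ratios size factors gave 0.79 for Ccl27a (WTUV over WTctrl). For shares of cells, leaving cells unthinned gave Ccl17 1.99 for WTUV over WTctrl (0.49) and 0.21 for RPUV over WTUV (1.46), and Ccl27a -0.98 for RPUV over WTUV (-2.24), which was -1.80 at 2000 UMIs. The cause of these changes was not tested, apart from those that leave out cells by construction. No value could be had for Ccr4 in T-like cells of RPUV without its 1 cell or, for the share, at 2000 UMIs.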

Other observations

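Barcodes left out by the filters, 668 in WTctrl, 924 in WTUV and 1170 in RPUV, also held UMIs of these genes. Ccr4 was at 11.6 CPM there in WTctrl (107 UMIs, 9.54 to 14.07), 6.94 in WTUV and 0.467 in RPUV, and Ccl27a at 449, 451 and 52.6, both with RPUV lowest as in the kept keratinocyte-like cells. Ccl20 held 31 UMIs in the left-out barcodes of WTUV beside 16 in its kept cells. In the left-out barcodes it was at 0.871 CPM in WTctrl, 1.71 in WTUV and 1.29 in RPUV. RPUV was thus not the highest there, unlike in the kept cells. An unnamed cluster led by Cxcl3, Cxcl9 and Ccl17 held Ccl17 at 1438 CPM in 14 WTctrl cells and 157 in 48 WTUV cells.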
